A study of Mus musculus with 12 samples.

Results

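Choroid plexus epithelium was followed through 10 of its marker genes, Ttr, Folr1, Kl, Otx2, Prlr, Clic6, Aqp1, Slc4a5, Enpp2 and Calml4, in RNA from mouse cerebellum. The 10 genes were chosen by name, through the Ensembl identifiers in the count tables, out of 55401 identifiers listed. All 10 passed the filter on low counts, which kept 19378 genes. The data were 12 libraries, 1 per mouse, in 3 groups of 4. Wild-type mice injected with dimethyl sulfoxide (DMSO, the solvent) are called WT DMSO (libraries 413, 425, 426 and 431, named by animal number). Heterozygous Atxn1 154Q/2Q mice, knock-ins whose own Atxn1 gene holds a lengthened CAG repeat and which model spinocerebellar ataxia type 1 (SCA1), received DMSO alone (Het DMSO, libraries 409, 411, 420 and 429) or the compound Hit 2 in DMSO (Het Hit2, libraries 410, 421, 422 and 430). All mice started treatment at 18 weeks of age, were injected into the abdomen daily in 2 courses of 5 days with 2 days of rest between them, and were perfused with buffered saline at 20 weeks before the cerebellum was taken. Hit 2 was given at 25 mg/ml and the DMSO volume stayed below 4 ml/kg. Strain and sex are not stated in the labels used here, and gene counts cannot show the length of the repeat.

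The choroid plexus is a sheet of cuboidal epithelium around leaky capillaries that hangs into the brain ventricles and secretes cerebrospinal fluid. Its cells make and release transthyretin, carry folate, sodium, bicarbonate and water from blood to fluid, and bear receptors for hormones such as prolactin. The plexus of the fourth ventricle lies against the underside of the cerebellum, so a dissected cerebellum may or may not come with some of it. In bulk tissue RNA, more cells of a type and more RNA per cell cannot be told apart, and the amount of plexus tissue in each sample was not measured.

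Libraries held 15855751 to 45265719 gene reads, and values below are counts-per-million values (CPM) on library sizes of gene reads scaled by the trimmed mean of M values (TMM), which correct for differences in composition. Library 411 stood apart from the cerebellum label. Its summed CPM over 10 granule cell markers was 203 against 3999 to 8785 in the other libraries, with Fat2, the most abundant of them, at 2.57 CPM against 1452 to 4022. Its 10 Purkinje cell markers summed to 652 CPM against 3387 to 8055 elsewhere, and its 12 oligodendrocyte markers to 6912 CPM against 1353 to 5762. Library 409 had the lowest TMM factor, 0.897 against 0.983 to 1.03 in the others. Comparisons are therefore also given without libraries 409 and 411. The labels name no batch.

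For 6 of the 10 genes (Kl, Otx2, Prlr, Aqp1, Slc4a5 and Calml4) the RefSeq promoter table, on build GRCm38.p6, held at least 1 start site, 11 in all. These sequences show what lies upstream of genes that did and did not rise together, and 4 windows of 250 bases that end just before a start site and overlap no annotated exon are printed, with 1 of 3 start sites for Prlr and 1 of 4 for Otx2. All 3 Prlr windows overlapped no exon, and the one shown was chosen because it holds a motif match. Kl and Aqp1 followed Ttr across libraries, Prlr did so in part, and Otx2 did not. Capitals mark the TATA box letters TATAAA in the Otx2 window and TGTTTAC, the reverse complement of the forkhead letters GTAAACA, in the Prlr window. The Otx2 match begins 192 bases before the start site and the Prlr match 215 bases before it.
Kl, plus strand, chr5:150952357-150952606: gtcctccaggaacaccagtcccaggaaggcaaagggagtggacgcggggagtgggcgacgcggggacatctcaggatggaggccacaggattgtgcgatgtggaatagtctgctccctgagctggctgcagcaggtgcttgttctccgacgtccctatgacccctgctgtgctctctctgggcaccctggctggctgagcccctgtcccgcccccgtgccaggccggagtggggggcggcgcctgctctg
Aqp1, plus strand, chr6:55336049-55336298: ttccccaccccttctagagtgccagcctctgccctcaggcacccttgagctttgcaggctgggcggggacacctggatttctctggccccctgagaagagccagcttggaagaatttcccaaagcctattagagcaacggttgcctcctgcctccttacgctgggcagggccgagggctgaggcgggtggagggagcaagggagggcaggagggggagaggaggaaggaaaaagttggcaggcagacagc
Prlr, plus strand, chr15:10223656-10223905: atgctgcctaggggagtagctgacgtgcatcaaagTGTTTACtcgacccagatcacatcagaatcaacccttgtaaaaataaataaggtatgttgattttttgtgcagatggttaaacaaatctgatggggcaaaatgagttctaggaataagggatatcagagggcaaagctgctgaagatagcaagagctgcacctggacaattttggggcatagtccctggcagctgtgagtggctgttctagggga
Otx2, minus strand, chr14:48667645-48667894: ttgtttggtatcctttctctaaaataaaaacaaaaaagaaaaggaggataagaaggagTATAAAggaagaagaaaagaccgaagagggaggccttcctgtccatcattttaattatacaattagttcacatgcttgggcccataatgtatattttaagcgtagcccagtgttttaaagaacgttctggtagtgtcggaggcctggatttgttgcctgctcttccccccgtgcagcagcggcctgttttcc
Across the 11 promoters of these genes, searched on both strands, TATAAA was present in 2 (1 each of Slc4a5 and Otx2), GTAAACA in 1 (the Prlr window above) and TAATCC, a letter core of OTX-type homeodomain sites, in 1 (an Otx2 promoter). The shares among all 32851 promoters of the same length were 12.4% for TATAAA, 3.17% for GTAAACA and 6.25% for TAATCC. A letter match describes the sequence only. The Kl and Aqp1 windows held none of the 3 motifs, on either strand.

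Of the secreted proteins, Ttr encodes transthyretin, the carrier of thyroxine and retinol-binding protein that the plexus releases into cerebrospinal fluid. Ttr read 606, 970, 7.45 and 3.31 CPM in WT DMSO libraries 413, 425, 426 and 431. It read 9.46, 136, 25.7 and 1737 CPM in Het DMSO libraries 409, 411, 420 and 429. In Het Hit2 libraries 410, 421, 422 and 430 it read 844, 3.51, 2.51 and 6.62 CPM. Each group thus held at least 1 library above 600 CPM and at least 1 below 10 CPM, and the 3 groups overlapped throughout. Library 429 was 693-fold above library 422. Ttr reads were 0.175% of gene reads in library 429 (95% Wilson interval 0.174% to 0.177%) and 0.000250% in library 422 (0.000207% to 0.000301%). These intervals cover counting error only. Library 411, at 136 CPM, lay between the 4 high libraries and the remaining 7.

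Enpp2 encodes autotaxin, a secreted lysophospholipase D that makes lysophosphatidic acid. Its values were 429, 620, 72.2 and 61.0 CPM in WT DMSO, 79.7, 312, 79.2 and 1015 CPM in Het DMSO, and 690, 66.2, 58.2 and 74.2 CPM in Het Hit2, in the same library order. The same 4 libraries were highest, but the lower ones stayed at 58.2 CPM or more, and the span from lowest to highest was 17.4-fold. Enpp2 is also made by oligodendrocytes, whose summed markers were highest in library 411 (6912 CPM) and library 410 (5762 CPM), the highest also for Enpp2 relative to Ttr among the 5 libraries with most Ttr. The part of oligodendrocyte RNA in the Enpp2 values was not tested.

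**Figure D1:**
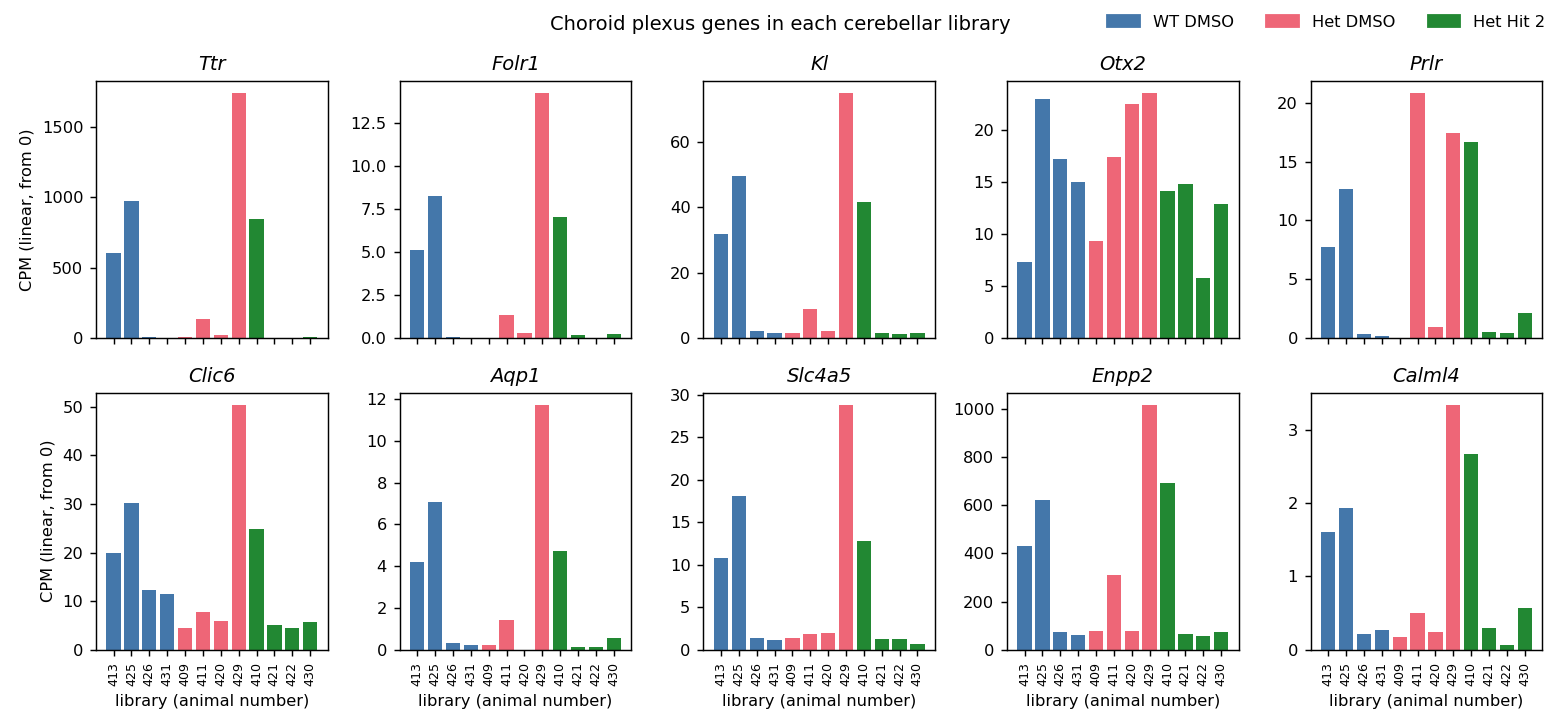
CPM (TMM-scaled, linear axes from 0, a different scale for each gene) of the 10 choroid plexus genes in each of the 12 libraries, 1 bar per library, coloured by group. Libraries 413, 425, 429 and 410 carry the highest bars for 8 genes, Prlr is highest in 411, and Otx2 has no such pattern.

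Among receptors and membrane proteins, Folr1 encodes folate receptor alpha, which carries folate across the epithelium. Folr1 read 5.10, 8.27, 0.0785 and 0 CPM in WT DMSO, 0, 1.36, 0.311 and 14.2 CPM in Het DMSO, and 7.06, 0.198, 0 and 0.235 CPM in Het Hit2. Its 3 zeros, in libraries 431, 409 and 422, allow up to 0.134, 0.0739 and 0.0690 CPM, the level of 3 reads. Folr1 thus had 0 to 5 reads in 7 libraries, 27 reads in library 411 and 122 to 351 in the 4 high libraries.

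Kl encodes klotho, the membrane co-receptor for fibroblast growth factor 23, which can also be shed. Kl read 31.7, 49.5, 2.09 and 1.52 CPM in WT DMSO, 1.55, 9.03, 2.18 and 74.7 CPM in Het DMSO, and 41.6, 1.48, 1.15 and 1.50 CPM in Het Hit2. The order of the 4 highest libraries (429, 425, 410, 413), of the next (411) and of the lowest (422) was that of Ttr. The span was 65.0-fold, and the fourth library stood 3.51-fold above the next.

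Prlr encodes the prolactin receptor. It read 7.74, 12.6, 0.340 and 0.224 CPM in WT DMSO, 0.0246, 20.8, 0.933 and 17.4 CPM in Het DMSO, and 16.6, 0.544, 0.414 and 2.11 CPM in Het Hit2. Prlr departed from Ttr in that library 411 was the highest. The value in library 409 rests on 1 read, so no fold is given for its span.

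Of the genes for ions and water, Slc4a5 encodes the sodium bicarbonate cotransporter NBCe2, found on the fluid side of the epithelium. Slc4a5 read 10.8, 18.1, 1.33 and 1.21 CPM in WT DMSO, 1.35, 1.87, 1.93 and 28.8 CPM in Het DMSO, and 12.9, 1.24, 1.29 and 0.704 CPM in Het Hit2. It had the widest gap between the fourth library and the next among the 10 genes, 5.59-fold, and library 411 was only the sixth. Its span was 41.0-fold.

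Aqp1 encodes the water channel aquaporin 1. It read 4.21, 7.09, 0.340 and 0.224 CPM in WT DMSO, 0.222, 1.41, 0 and 11.7 CPM in Het DMSO, and 4.75, 0.148, 0.115 and 0.563 CPM in Het Hit2. The order of the 4 highest libraries was again that of Ttr, and the zero in library 420 allows up to 0.187 CPM.

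Clic6, a chloride intracellular channel family member, read 19.8, 30.3, 12.3 and 11.4 CPM in WT DMSO, 4.51, 7.82, 5.85 and 50.4 CPM in Het DMSO, and 24.8, 5.04, 4.41 and 5.77 CPM in Het Hit2. Clic6 also kept the order 429, 425, 410 and 413 at the top. Its span was 11.4-fold, and the low WT DMSO libraries 426 and 431 lay above library 411, unlike for Ttr, Kl and Folr1. Calml4, which encodes a calmodulin-like protein, read 1.61, 1.93, 0.209 and 0.269 CPM in WT DMSO, 0.172, 0.505, 0.249 and 3.34 CPM in Het DMSO, and 2.66, 0.297, 0.0690 and 0.563 CPM in Het Hit2. Calml4 values rest on 3 to 82 reads per library, and 47.7% of the reads over this gene on either strand lay on the strand not counted, against 5.66% for Slc4a5 and at most 0.252% for the other 8 genes.

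Otx2, the homeodomain transcription factor required to form the choroid plexus, did not share the pattern of the others. It read 7.35, 22.9, 17.2 and 15.0 CPM in WT DMSO, 9.39, 17.4, 22.5 and 23.5 CPM in Het DMSO, and 14.2, 14.8, 5.82 and 12.9 CPM in Het Hit2. Library 413, the fourth for Ttr, had the second lowest Otx2 value, and library 420, with 25.7 CPM of Ttr, had the third highest. The span was 4.04-fold. Library 429 was still the highest and library 422 the lowest, as for Ttr. Libraries 426 and 431, with 7.45 and 3.31 CPM of Ttr, held 17.2 and 15.0 CPM of Otx2. The part of cells outside the plexus in the Otx2 values was not tested.

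**Figure D2:**
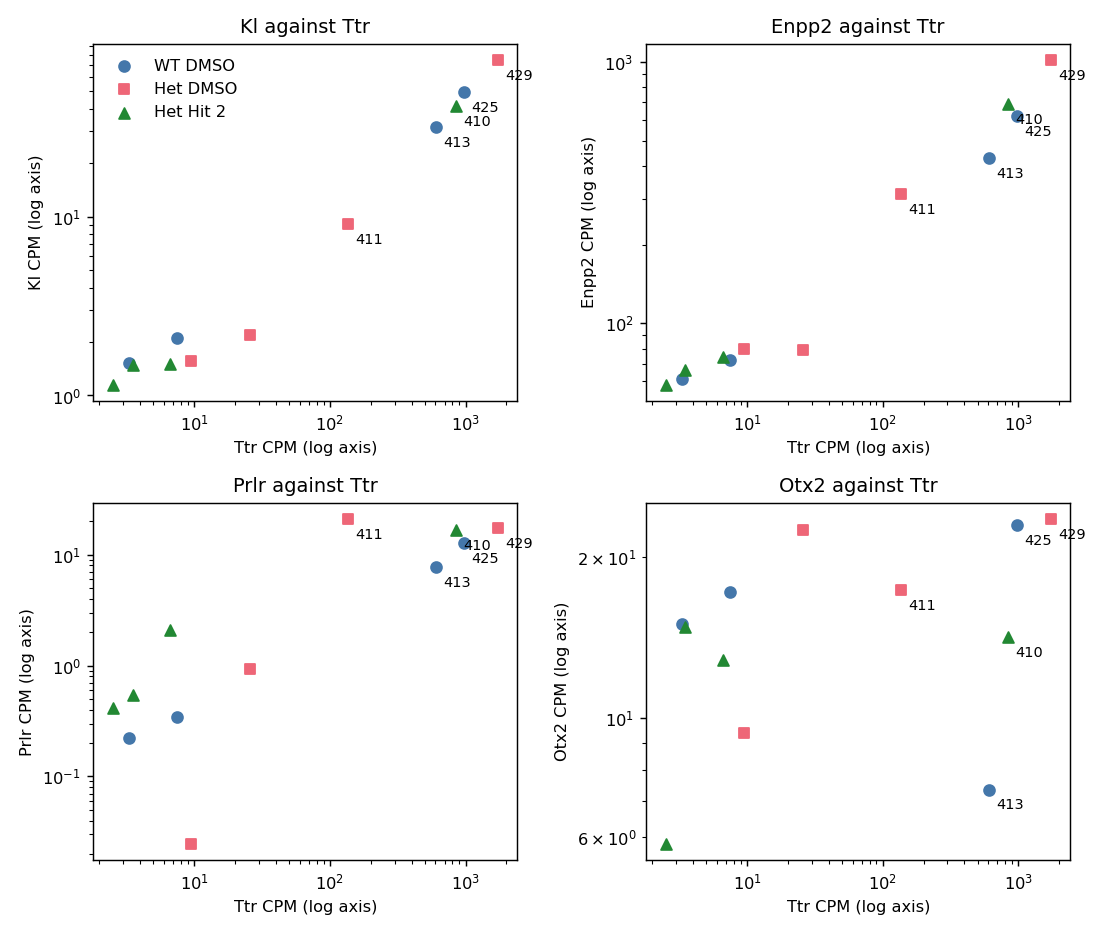
Kl, Enpp2, Prlr and Otx2 against Ttr, all in CPM on log axes, 1 point per library with shape and colour for the group. Kl climbs with Ttr from 7 low libraries through 411 to 413, 410, 425 and 429, Enpp2 does so except that 410 lies above 425, Prlr is highest in 411, and Otx2 spreads between 5.82 and 23.5 CPM with no such climb.

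Seen together, 8 of the 10 genes (all but Prlr and Otx2) had the same 4 highest libraries as Ttr, counting Ttr itself, and 6 had them in the same order. Over all 19378 genes tested, 87 (0.449%) had these 4 libraries highest. The 4 libraries were 2 of WT DMSO, 1 of Het DMSO and 1 of Het Hit2. Library 429 was the highest for 9 genes, and library 422 lay among the 4 lowest for all 10. The genes were chosen with the variation between libraries known, so these counts describe it and test nothing. The standard deviation (SD) of log2 CPM over the 12 libraries was 3.64 for Ttr, exceeded by 1 gene of the 19378. It was 2.92 for Folr1, 2.72 for Prlr, 2.40 for Aqp1 and 2.35 for Kl, exceeded by 14, 24, 49 and 60 genes. Slc4a5 (1.82), Enpp2 (1.61), Calml4 (1.52) and Clic6 (1.19) varied less, and Otx2, at 0.64, was exceeded by 4204 genes.

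The proportions of several of the genes to Ttr were close in the 4 high libraries. Per 100 Ttr reads, Folr1 had 0.842, 0.852, 0.819 and 0.837 reads in libraries 413, 425, 429 and 410. The 95% exact binomial interval, which covers counting error only, was 0.709 to 0.992 in library 413 and overlapped those of the other 3. Kl had 5.23, 5.10, 4.30 and 4.93 reads per 100 Ttr reads, and Clic6 had 3.27, 3.12, 2.90 and 2.94. The Kl interval of library 429 (4.10 to 4.51) lay below that of library 413 (4.88 to 5.59), so the ratios were near to each other but not equal within counting error. Slc4a5 had 1.78, 1.87, 1.66 and 1.52, and Aqp1 0.695, 0.731, 0.675 and 0.563. Prlr, with 1.28, 1.30, 1.00 and 1.97, and Otx2, with 1.21, 2.36, 1.35 and 1.68, were less even, as was Calml4, with 0.265, 0.199, 0.192 and 0.316. In library 411, Folr1 (1.00, interval 0.661 to 1.46), Aqp1 (1.04) and Slc4a5 (1.38) had intervals that overlapped those of library 413. Kl, at 6.66, and Clic6, at 5.77, had intervals above those of library 413. Prlr, at 15.3, Otx2, at 12.8, and Enpp2, at 230 reads per 100 Ttr reads against 58.5 to 81.7 in the 4 high libraries, were far above them there. The libraries other than these 4 and 411 held 71 to 413 Ttr reads. Kl ran from 8.47 to 45.9 reads per 100 Ttr reads in them, Clic6 from 22.8 to 345 and Slc4a5 from 7.51 to 51.4. Folr1 and Aqp1 ran from 0 to 5.63 and from 0 to 8.51, on few reads.

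**Figure D3:**
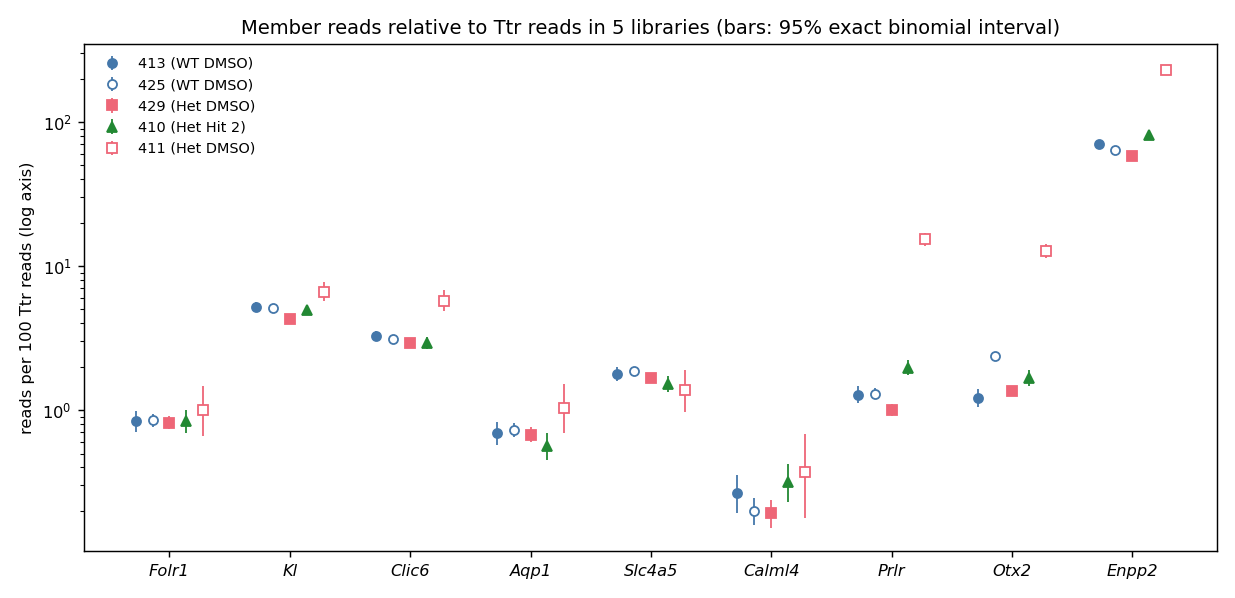
Reads of 9 genes per 100 Ttr reads (log axis) in the 4 libraries with most Ttr and in library 411, with 95% exact binomial intervals for counting error. Folr1, Kl, Clic6, Aqp1 and Slc4a5 lie close together in the 4 libraries, Calml4 runs from 0.192 to 0.316 there, and Prlr, Otx2 and Enpp2 of library 411 (open squares) stand above.

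Compared per length, as CPM per kilobase of annotated exon (GENCODE M21 gene models), Ttr reached 1464 in library 429. The level of Enpp2 there was 176, that of Clic6 12.9, Kl 8.01, Folr1 6.19, Otx2 5.57, Slc4a5 4.97, Aqp1 4.46, Prlr 1.14 and Calml4 0.916. In library 422 the order differed, with Enpp2 at 10.1, Ttr at 2.11 and Otx2 at 1.38 CPM per kilobase. In that library Ttr thus lay below Enpp2, and above it in library 429.

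A further 60 genes known from choroid plexus, in 6 lists by role, were examined, of which 57 passed the low-count filter. Of these 57, 17 (29.8%) had the same 4 highest libraries as Ttr, against 0.449% of all genes tested. They were 4 of 12 genes for ion and water movement (Kcnj13, Kcne2, Car12 and Trpv4), 5 of 12 for secreted proteins (1500015O10Rik, Sostdc1, Wfikkn2, F5 and Lbp), 4 of 11 for carriers and enzymes (Slc2a12, Abca4, Tmem72 and Steap1) and 4 of 6 for epithelial junctions and keratins (Cldn1, Cldn2, Krt8 and Krt18). None of 8 receptors and none of 8 transcription factors did. Most of these 17 genes are named because of that count, after their values were seen.

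The most abundant genes of these lists, ranked by mean CPM over all libraries, mostly did not follow Ttr. That ranking also counts RNA of cells outside the plexus, whose part in these values was not tested. Atp1b1, a sodium pump beta subunit, ranged from 644 to 1108 CPM, highest in library 411. Penk, the proenkephalin gene, ranged from 35.3 to 52.1 CPM and Slc29a4, a monoamine transporter, from 23.8 to 62.6 CPM, with no excess in the 4 libraries. Ace, angiotensin-converting enzyme, was at 32.8, 46.8, 57.6 and 57.2 CPM in libraries 413, 425, 429 and 410 and at 53.0 CPM in library 411, against 16.8 to 29.0 CPM in the other 7. Cldn2, the pore-forming claudin of leaky epithelia, read 3.39, 5.94, 11.3 and 4.98 CPM in the same 4 libraries and 0.222 to 1.66 CPM in the rest. Sulf1, a heparan sulfatase, ranged from 18.2 to 50.6 CPM and Cdh1, E-cadherin, from 0.202 CPM in library 411 to 11.6 CPM in library 429. The transcription factors Meis1 (17.6 to 152 CPM) and Tfap2b (20.7 to 50.03 CPM) and the receptor Vipr2 (2.12 to 24.4 CPM) were not raised in the 4 libraries either.

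Htr2c, the serotonin 2C receptor and the most abundant receptor of the lists, had a pattern like that of Prlr. It read 126 CPM in library 411 and 66.4 CPM in library 410, then 29.7, 26.2, 22.5 and 18.0 CPM in libraries 429, 413, 430 and 425. The other 6 libraries lay between 0.690 and 2.59 CPM. Htr2c is also made by neurons, and their part in these values was not tested.

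By pattern over the 12 libraries, the 10 other genes most like the mean of the members on the log2 scale were Krt18 (Pearson r = 0.991), F5 (0.986), Slc16a8 (0.976), Tmem72 (0.974), Sostdc1 (0.972), Wdr72 (0.972), Mfrp (0.970), Gm853 (0.969), Car12 (0.969) and Slc2a12 (0.962). These correlations are descriptions over libraries that fall into a high and a low set and share the same library sizes. Without libraries 429 and 425, the farthest from the median, r of these genes was 0.984 for Krt18, 0.976 for F5 and 0.937 for Slc2a12. Of the 10 genes, 6 were in the choroid plexus lists above, as were 20 of the 50 most similar. F5, coagulation factor V, read 9.99, 17.3, 32.4 and 18.4 CPM in libraries 413, 425, 429 and 410 and 0.148 to 3.53 CPM in the rest. Tmem72, a membrane protein, read 16.4, 23.8, 39.3 and 20.7 CPM in them and at most 3.58 CPM elsewhere. The same measure for members themselves was 0.993 for Kl and 0.380 for Otx2, which was 0.039 without libraries 429 and 425. A member is part of the mean it is compared with.

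Markers of other cell types were read beside the choroid plexus genes. None of the tested genes for ependyma (8), meninges and fibroblasts (12), endothelium (10), red blood cells (5), oligodendrocytes (12), Purkinje cells (10) or granule cells (10) had the same 4 highest libraries as Ttr, a share that is 0.449% over all genes, so that lists of this size would mostly hold none. Ependymal and oligodendrocyte lists nevertheless lay above their medians in all 4 libraries high in choroid plexus genes. The mean log2 difference of the ependymal list from its median was 0.70, 0.25, 1.34 and 0.70 in libraries 413, 425, 429 and 410. It was below the median in library 411 and in 5 of the 7 low libraries, and above it in libraries 421 (0.59) and 430 (1.03). The oligodendrocyte list was at 0.66, 0.13, 0.66 and 1.38 in the same 4 libraries and at 1.68 in library 411, and lay between -0.67 and -0.06 in the 7 low libraries. The 12 ependymal markers summed to 8.68 to 48.8 CPM, highest in library 429, and 0 to 4 of them had no reads in a library. Hydin, a gene of motile cilia and the most abundant of these, was at 34.2 CPM in library 429 and 30.4 CPM in library 409. Meningeal and fibroblast markers summed to 60.5 to 165 CPM, with Col1a2 at 16.8 to 54.8 CPM, and endothelial markers to 206 to 343 CPM, with Flt1 at 74.9 to 117 CPM. Red cell markers summed to 3.62 to 67.0 CPM, with Hbb-bs highest in library 410 at 37.0 CPM. In the Purkinje list Itpr1 read 273 CPM in library 411 and 2011 to 4727 CPM elsewhere, lowest of these in library 410. Library 410 also had the lowest summed Purkinje (3387 CPM) and granule cell markers (3999 CPM) after library 411. Mbp, the most abundant oligodendrocyte marker, was at 3241 CPM in library 411 and 2685 CPM in library 410, followed by 1600 CPM in library 429 and 1591 CPM in library 413, and between 583 and 1352 CPM in the others. The 11 brainstem Hox genes summed to 20.8 CPM in library 425, with Hoxb5 at 5.91 CPM, and to at most 0.926 CPM in the others. All 11 were at 0 reads in libraries 411 and 421. Summed oligodendrocyte markers were 5762, 3616 and 3554 CPM in libraries 410, 429 and 413, above the 1353 to 2779 CPM of the 7 low libraries, and 2436 CPM in library 425, within that range. Among the 4 libraries high in choroid plexus genes, Hox reads were thus high in 425 and oligodendrocyte markers in the other 3, and the part of adjoining tissue in the choroid plexus values was not tested.

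**Figure D4:**
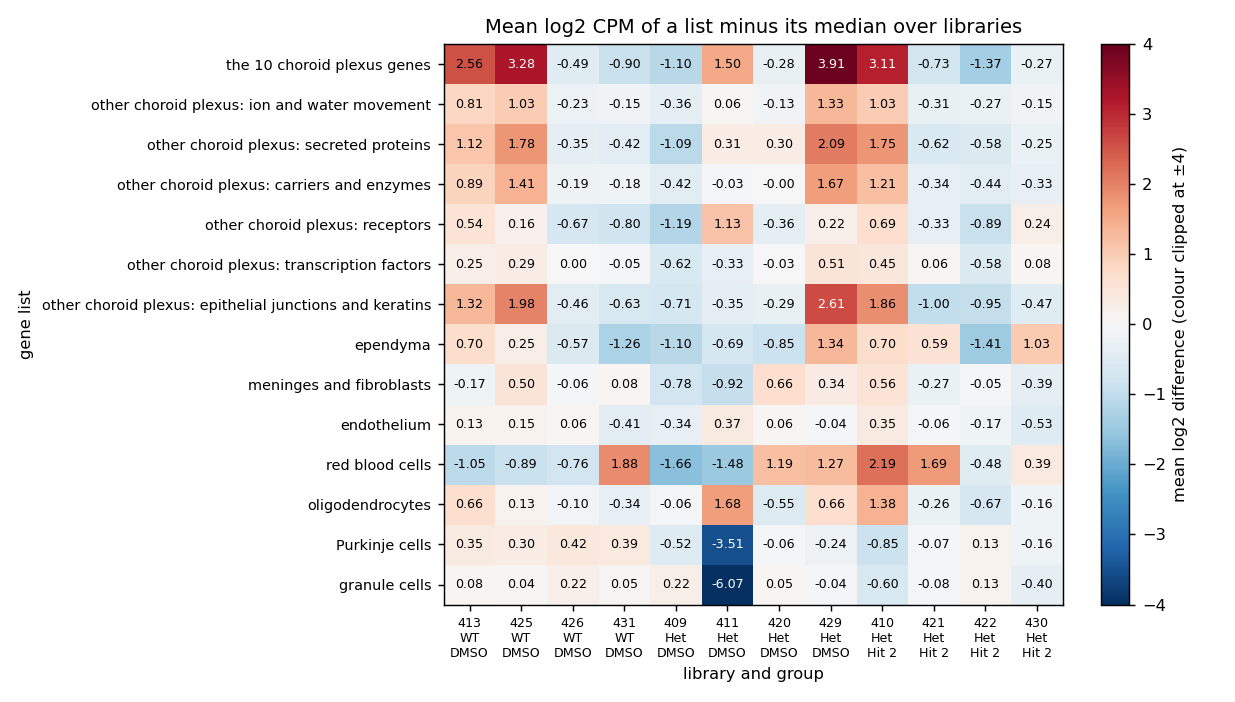
Mean over the genes of each list of log2 CPM minus its median over the 12 libraries, for each library (columns, with group) and list (rows), printed in each cell and coloured from blue (below the median) to red (above). The 10 choroid plexus genes are 2.56, 3.28, 3.91 and 3.11 above their medians in libraries 413, 425, 429 and 410 and 1.50 in library 411, where the granule cell list is at -6.07.

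Between the groups, none of the 10 genes passed the test in any comparison. The mean Ttr level of the 4 libraries was 397 ± 476 CPM for WT DMSO, 477 ± 842 CPM for Het DMSO and 214 ± 420 CPM for Het Hit2 (mean ± SD), with an SD above the mean in each. Kl averaged 21.2 ± 23.5, 21.9 ± 35.4 and 11.4 ± 20.1 CPM, and Otx2 15.6 ± 6.46, 18.2 ± 6.47 and 11.9 ± 4.15 CPM (SD, n = 4 each). The mean of Ttr in Het Hit2 was carried by library 410, and that in Het DMSO by library 429.

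The effect of the knock-in under solvent was read from Het DMSO against WT DMSO. Ttr differed by a log2 fold change of 0.26 (standard error, SE, 2.07), with an adjusted p of 0.965 by edgeR's quasi-likelihood test with Benjamini-Hochberg adjustment over all genes. None of the 10 genes passed the threshold of 0.05, and 0.00516% of all genes tested (1 gene) did. None reached an unadjusted p of 0.05, against 1377 of all 19378 genes tested. None was called by DESeq2, which called 42 of 20257 genes, and none had groups that did not overlap, against 4.39% of all genes. The median log2 fold change of the 10 genes was 0.19 (0.05 over all genes), with 9 positive values and 1 negative, Clic6 at -0.11. Adjusted p-values ranged from 0.825 to 0.991 by edgeR. An exact two-sided permutation test over the 70 assignments of 8 libraries gave p of 0.429 to 1, where the smallest it can give is 0.0286. Without library 429, Ttr was at -2.81, 7 members changed sign (Ttr, Folr1, Kl, Aqp1, Slc4a5, Enpp2 and Calml4), and 1 member had an unadjusted p under 0.05, with none called. Over all genes in that fit, 2760 of 19647 had an unadjusted p under 0.05. Without library 426 or 431, Ttr was at -0.14 or -0.15, and without library 425 it was at 1.21. Without libraries 409 and 411, it was at 1.14 (SE 2.37).

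The effect of the compound was read from Het Hit2 against Het DMSO, which share the knock-in genotype and the solvent. Ttr was at -1.16 (SE 2.10), Kl at -0.95 (SE 1.52), Prlr at -1.01 (SE 1.59) and Otx2 at -0.61 (SE 0.39). None of the 10 passed the threshold, with adjusted p of 0.898 to 0.953 by edgeR, and 0% of all genes did, 301 of them having an unadjusted p under 0.05. None of the 10 reached an unadjusted p of 0.05, none was called by DESeq2, which called 0 genes in all, and none had groups apart, against 1.03% of all genes. All 10 log2 fold changes were negative, with a median of -0.98 (-0.04 over all genes), and the exact two-sided permutation p ranged from 0.2 to 0.886. The sign rested on library 429: without it, Ttr was at 1.91, Kl at 1.42 and Slc4a5 at 1.22, and 8 of the 10 members were positive, all but Prlr and Otx2. Without library 410, Ttr was at -6.84 and Kl at -3.998, and 5 members had an unadjusted p under 0.05, none of them called. Over all genes in that fit, 742 of 19742 had an unadjusted p under 0.05. Without libraries 409 and 411, Ttr was at -2.05 (SE 2.36) and Otx2 at -0.97 (SE 0.41). In that fit 1 member had an unadjusted p under 0.05, against 748 of all 20105 genes.

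Het Hit2 against WT DMSO combines genotype and compound and shares its samples with the other comparisons. Ttr was at -0.89 (SE 2.09), Clic6 at -0.89 (SE 0.80) and Otx2 at -0.40 (SE 0.39). None of the 10 passed the threshold, with an adjusted p of 0.9999 for each by edgeR, and 0.00516% of all genes did (1 gene). None reached an unadjusted p of 0.05, against 331 of all genes tested. None was called by DESeq2, which called 23 genes in all, and none had groups apart, against 6.32% of all genes. All 10 values were negative, with a median of -0.89 (0.02 over all genes), and the exact two-sided permutation p ranged from 0.143 to 1. Without library 410 Ttr was at -6.58 and 3 members had an unadjusted p under 0.05, none of them called, and without library 425 it was at 0.055. Over all genes, the fits that leave out 1 library had 217 to 752 at an unadjusted p under 0.05. Without libraries 409 and 411 Ttr was at -0.91 (SE 2.02). The width of these errors means that several-fold differences between groups in either direction could not be detected for Ttr.

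**Figure D5:**
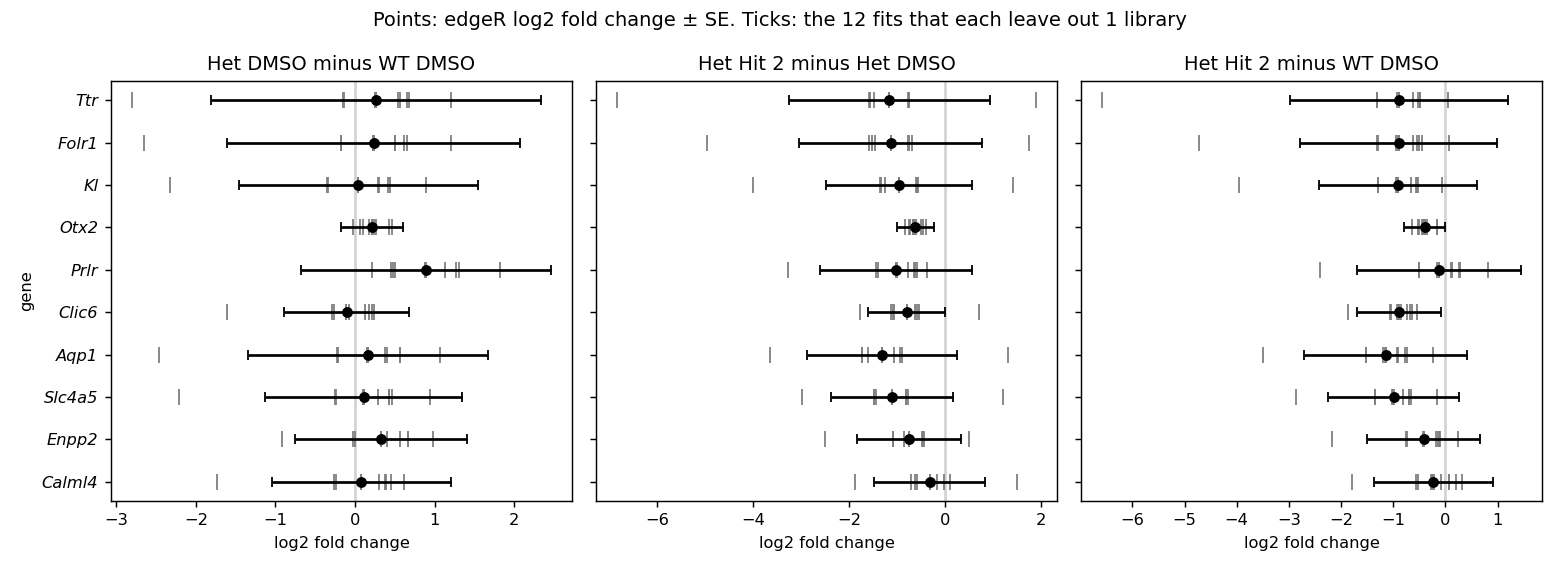
Log2 fold change of each of the 10 genes in the 3 comparisons (points, with bars of 1 SE from the edgeR fit) and the values from the 12 fits that each leave out 1 library (ticks). For Ttr the ticks run from -2.81 to 1.21, from -6.84 to 1.91 and from -6.58 to 0.055, while Otx2 moves least.

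The other choroid plexus genes likewise gave no call. Of the 57 tested, 0 rose and 0 fell in each comparison, with 3, 0 and 0 at an unadjusted p under 0.05. Their median log2 fold change was 0.09 in Het DMSO against WT DMSO, -0.32 in Het Hit2 against Het DMSO and -0.23 in Het Hit2 against WT DMSO. The list of epithelial junctions and keratins had medians of 0.28, -0.91 and -0.54, and the list of transcription factors -0.11, -0.19 and -0.20. With the mean level of the 10 members added to the model as a covariate, the number of genes past the threshold stayed at 1, 0 and 1, and the number with an unadjusted p under 0.05 was 1470, 343 and 400 against 1377, 301 and 331 without it.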

How the data were processed

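RNA from 12 cerebella was depleted of ribosomal RNA and made into directional libraries read as pairs of 100 bases, per the labels' protocols. The authors deposited 1 table of raw gene counts per library in STAR's layout, not normalized, per the file headers. STAR 2.7.10a, FastQC 0.11.9 and GRCm39 are named in the submitters' processing notes, and the annotation release is not given in the sources used here. Counts on the opposite strand (column 4) were used, since the other strand held 5.21% to 6.47% of gene reads. Reads with no gene (44.7% to 54.6% of a library), several hits (4.08% to 7.01%), no hit (3.70% to 6.53%) or an ambiguous gene (0.761% to 1.33%) stayed out. Symbols came from a GENCODE M21 table that matched 55141 of 55401 identifiers.

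From these counts, edgeR 4.0.16 (R 4.3.3) was fitted to all 12 libraries with TMM scaling, filterByExpr, 1 coefficient per group and glmQLFTest, with a threshold of 0.05 on Benjamini-Hochberg adjusted p-values. SE is the absolute log2 fold change over the square root of F. Log2 CPM used a prior count of 2. The fit was tested on simulated data. Alternatives were DESeq2 1.42.0, other scaling, filter, strand and libraries. Whether replicates differ in more than the animal is not stated. Intervals for counting error, which depth sets, are given beside some values only. The members and gene lists were chosen with earlier results of these data known. Named were all members, the 2 most abundant genes of each other choroid plexus list (1 of them is not reported here), any gene called there, the 10 most similar genes and the most abundant gene of each other list. Other genes were chosen after their values were seen.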

Additional observations from a re-analysis of the deposited data

Results flagged for a closer look

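Within the groups of 4, the gap between the highest or the lowest library and its neighbour, as a share of the group's range, exceeded Dixon's 95% critical ratio for 4 samples in 15 of 30 checks (10 genes in 3 groups), each time at the high end. Chance flags about 1 in 20 groups of unselected values, but these genes were chosen with their variation between libraries known and read the same libraries, so the number of such gaps is a description and tests nothing.

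In Het DMSO, library 429 was far above the other 3 for 7 genes. The values were 1737 CPM for Ttr (next 136), 14.2 for Folr1 (next 1.36), 74.7 for Kl (next 9.03), 50.4 for Clic6 (next 7.82), 11.7 for Aqp1 (next 1.41), 28.8 for Slc4a5 (next 1.93) and 3.34 for Calml4 (next 0.505).

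In Het Hit2, library 410 was far above the other 3 for 8 genes. The values were 844 CPM for Ttr (next 6.62), 7.06 for Folr1 (next 0.235), 41.6 for Kl (next 1.50), 16.6 for Prlr (next 2.11), 24.8 for Clic6 (next 5.77), 4.75 for Aqp1 (next 0.563), 12.9 for Slc4a5 (next 1.29) and 690 for Enpp2 (next 74.2). In WT DMSO no library stood apart in this way, with 2 libraries high and 2 low for most of the genes, and Otx2 stood apart in no group.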

How the results depend on the processing

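The count of members past the threshold stayed at 0 in all 57 alternatives, and their adjusted p-values by edgeR or DESeq2 ranged over the alternatives from 0.339 to 1, 0.630 to 1 and 0.707 to 1 in the 3 comparisons. The 8 members with the same 4 highest libraries as Ttr stayed 8 in number with RLE factors, plain library size or unstranded counts, alternatives chosen after seeing the data. Of 568 refitted fold changes of members, 48 changed sign, 46 of them among the 360 that leave out 1 library. The other 2 were, in Het DMSO against WT DMSO, Clic6 at 0.61 without libraries 409 and 411 and Calml4 at -0.046 with unstranded counts. Otherwise the cause was not tested.

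Leaving out 1 library at a time, log2 fold changes in Het DMSO against WT DMSO ran from -2.81 to 1.21 for Ttr, -2.66 to 1.20 for Folr1, -2.33 to 0.89 for Kl, -0.02 to 0.46 for Otx2, 0.21 to 1.82 for Prlr, -1.61 to 0.24 for Clic6, -2.46 to 1.07 for Aqp1, -2.21 to 0.94 for Slc4a5, -0.92 to 0.99 for Enpp2 and -1.74 to 0.62 for Calml4. In Het Hit2 against Het DMSO they ran from -6.84 to 1.91 for Ttr, -4.96 to 1.77 for Folr1, -3.998 to 1.42 for Kl, -0.83 to -0.38 for Otx2, -3.28 to -0.36 for Prlr, -1.76 to 0.72 for Clic6, -3.65 to 1.32 for Aqp1, -2.97 to 1.22 for Slc4a5, -2.49 to 0.50 for Enpp2 and -1.86 to 1.51 for Calml4. In Het Hit2 against WT DMSO they ran from -6.58 to 0.055 for Ttr, -4.73 to 0.079 for Folr1, -3.96 to -0.056 for Kl, -0.63 to -0.15 for Otx2, -2.40 to 0.81 for Prlr, -1.87 to -0.55 for Clic6, -3.50 to -0.23 for Aqp1, -2.87 to -0.16 for Slc4a5, -2.17 to 0.24 for Enpp2 and -1.79 to 0.32 for Calml4.

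Over all genes, 42 passed in Het DMSO against WT DMSO with DESeq2, 0 (713 at an unadjusted p under 0.05) with only the 8 libraries compared and 18 without libraries 409 and 411, against 1 in the edgeR fit, and leaving out 1 library gave 0 (without 429) to 9 (without 411). In Het Hit2 against WT DMSO, 23 passed with DESeq2, 4 with no filter, 2 with unstranded counts, 54 with only the 8 libraries compared and 90 without libraries 409 and 411, against 1, and leaving out 1 library gave 0 to 14 (without 411). Folr1 did not pass the filter when only the 8 libraries of a Het Hit2 comparison were fitted. No paired analysis was possible because the labels give each library an animal number that does not recur between groups.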
